A study of Mus musculus with 14 samples.

Results

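The ADAM, ADAMTS, ADAMTS-like, matrix metalloprotease and TIMP genes were followed in the cerebral cortex of mice that lack the microRNA family miR-29, or in which a single target of that family has lost its miR-29 sites. Members were every gene whose symbol is Adam, Adamts, Adamtsl or Mmp followed by a number, or Timp1 to Timp4, which gave 84 of the 24444 genes of each deposited table. They comprise 33 ADAM genes, 19 ADAMTS genes, 5 ADAMTS-like genes, 23 MMP genes and 4 TIMP genes. The cortical mRNA of 14 mice was sequenced, 1 library a mouse.

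The mice belong to 2 models, each with its own wild-type group. In miR29Nestin mice (n = 3), both floxed miR-29 clusters, miR-29ab1 and miR-29b2c, were deleted by Nestin-Cre, and their controls at day 40 after birth were miR29WT mice (n = 3). Nestin-Cre acts in neural progenitors and so in the neurons, astrocytes and oligodendrocytes that descend from them. Vessels, meninges and microglia arise from other lineages, and whether they kept their miR-29 was not measured here. In Dnmt3a-mi5 mice (n = 4), all miR-29 genes are intact and the DNA methyltransferase gene Dnmt3a has lost its 5 matches to the family in its 3′ UTR through a CRISPR/Cas9 knock-in. Their controls, also 4.5 months old, were Dnmt3a-WT mice (n = 4). The labels do not say whether the miR29WT mice carried floxed alleles or Cre, nor whether the knock-in mice were homozygous. The first pair of groups shows the differences that accompany loss of the family, and the second those that accompany the freeing of Dnmt3a from it. As the genotype of the miR29WT mice is not stated, an effect of Cre or of the floxed alleles cannot be told apart from that loss.

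ADAMs are membrane proteases that shed the outer parts of other membrane proteins, and several ADAMs of the brain have lost their catalytic site and act as receptors. ADAMTS enzymes are secreted and cut proteoglycans, procollagens and other matrix proteins. ADAMTS-like proteins share their non-catalytic modules but have no protease domain. MMPs cut matrix and surface proteins, some of them from an anchor in the membrane, and TIMPs inhibit MMPs and some ADAMs and ADAMTS enzymes. In the brain these proteins take part in Notch and amyloid precursor processing, in the turnover of the perineuronal matrix and in vessel remodelling. A microRNA pairs through its seed, bases 2 to 8, with sites in 3′ UTRs and lowers the transcripts that carry them.

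The mature miR-29 RNAs are shown first because 1 seed defines the sites that matter in both models. The sequences are those of RefSeq (GRCm38.p6), 5′ to 3′, with the seed in capitals. The 4 miR-29 genes give 3 mature sequences, all with the same seed.
mmu-miR-29a-3p: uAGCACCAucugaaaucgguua
mmu-miR-29b-3p: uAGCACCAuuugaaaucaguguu
mmu-miR-29c-3p: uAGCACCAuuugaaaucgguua
miR-29a and miR-29b-1 lie on the minus strand of chromosome 6, at chr6:31062673-31062694 and chr6:31063025-31063047. miR-29b-2 and miR-29c lie on the plus strand of chromosome 1, at chr1:195037091-195037113 and chr1:195037600-195037621.

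The site that matches this seed is TGGTGCT on the transcript, and TGGTGCTA for the longer match that includes an A opposite the first base of the microRNA. Only the transcript strand was searched, in the longest 3′ UTR of each gene's protein-coding transcripts (GENCODE M21, GRCm38). Such a match is a description of the sequence and does not show that the site is used. The windows below are those of the members that passed the test in the miR-29 deletion, and of Adamts9 and Adam12, with the match in capitals.
Adamts17 site 1, chr7:67151567-67151589, plus strand: tcttgatttattacTGGTGCTgt
Adamts17 site 2, chr7:67152289-67152311, plus strand: gtctctcagtcttaTGGTGCTAt
Adamts17 site 3, chr7:67152705-67152727, plus strand: ctgtggcagtagccTGGTGCTtc
Adam19 site 1, chr11:46144601-46144623, plus strand: gcatccctatcctaTGGTGCTtt
Adam19 site 2, chr11:46145225-46145247, plus strand: gaccttctcttgctTGGTGCTcc
Mmp24 site, chr2:155817982-155818004, plus strand: ccctctcctcaggtTGGTGCTca
Adamts9 site, chr6:92773488-92773510, minus strand: gaattgtgctgcctTGGTGCTAa
Adam12 site 1, chr7:133887777-133887799, minus strand: tcggtgctgtgctgTGGTGCTtt
Adam12 site 2, chr7:133884967-133884989, minus strand: gcctgtgatccccaTGGTGCTAc
Adamts17 carries 3 sites, 1 of them the longer match, and the 1 site of Adamts9 and 1 of the 2 of Adam12 are the longer match as well. These printed genes with the longer match all had higher mutant libraries. Adamts20, Adamts12 and Adamts6 also carry the longer match, and their windows are not printed. In these the groups overlapped, with miR29Nestin and miR29WT means of 167 and 152, 3.1 and 2.98, and 39.2 and 39.2 normalised counts. Adam19 carries 2 sites and Mmp24 1, all of the shorter kind.

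Sites were most common among the ADAMTS genes. A site was found in 17 of the 84 members, 20.2%, and in 13.5% of all genes with an annotated 3′ UTR. ADAMTS genes held 20 of the 30 sites, in 10 of 19 genes. ADAM genes held 7 sites in 4 of 33 genes and MMP genes 3 sites in 3 of 23. No ADAMTS-like gene and no TIMP gene had a site. The median 3′ UTR was 332 nucleotides long in the ADAM genes and 1843 in the ADAMTS genes, so the families also differ in how much sequence was searched.

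The miR29 libraries held 9.17 to 14.4 M reads in genes, as recovered from the low values, and the depth of the Dnmt3a libraries is unknown. Values below are normalised counts, recovered from the deposited log2 scale and comparable only within a model. Dnmt3a, which both models release from miR-29, stood at 5275 to 5859 normalised counts in miR29Nestin against 1605 to 1724 in miR29WT, and at 1948 to 2249 in Dnmt3a-mi5 against 1062 to 1234 in Dnmt3a-WT. Neuronal markers were high in all libraries, with a sum of 84730 to 94522 normalised counts over 5 markers in the first model and 70348 to 79078 in the second. Markers of striatum (4176 to 11055 over both models) and choroid plexus (90.7 to 13588), which border the cortex, varied widely within every group. Dnmt3a-WT library 2 stood apart: without it 81 genes in all passed the test between Dnmt3a-mi5 and Dnmt3a-WT, against 13 with it.

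In wild-type cortex the inhibitor Timp2, the catalytically inactive ADAMs and Mmp17 were the most abundant members per transcript length. Timp2, an inhibitor of MMPs that also serves MMP14 in activating MMP2, had the highest level at day 40, 1033 ± 81.6 normalised counts per kb of the longest transcript (SD, n = 3). It was followed by Adam11 at 586 ± 15.5 and Mmp17, a membrane-anchored MMP, at 498 ± 15 counts per kb. Adam22 (396 ± 34.1) and Adam23 (385 ± 19.3) came next and did not differ beyond their spread. ADAM11, ADAM22 and ADAM23 lack protease activity and bind the secreted LGI proteins at synapses and axons.

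The active sheddases lay lower. Adam10, the main α-secretase of neurons and the enzyme that starts Notch cleavage, had 158 ± 6.08 counts per kb, and Adam17, which releases TNF and growth factors, 47.6 ± 3.68. Mmp14 (53.7 ± 8.28) and Mmp15 (49.3 ± 2.13), both membrane-anchored, did not differ beyond their spread. At 4.5 months the order of the top genes was Timp2 (814 ± 200 counts per kb, n = 4), Mmp17 (386 ± 21.6), Adam11 (367 ± 12.8), Adam23 (337 ± 27.9) and Adam22 (327 ± 22.1). Of these, Mmp17 and Adam11 did not differ beyond their spread, nor did Adam23 and Adam22.

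**Figure D1:**
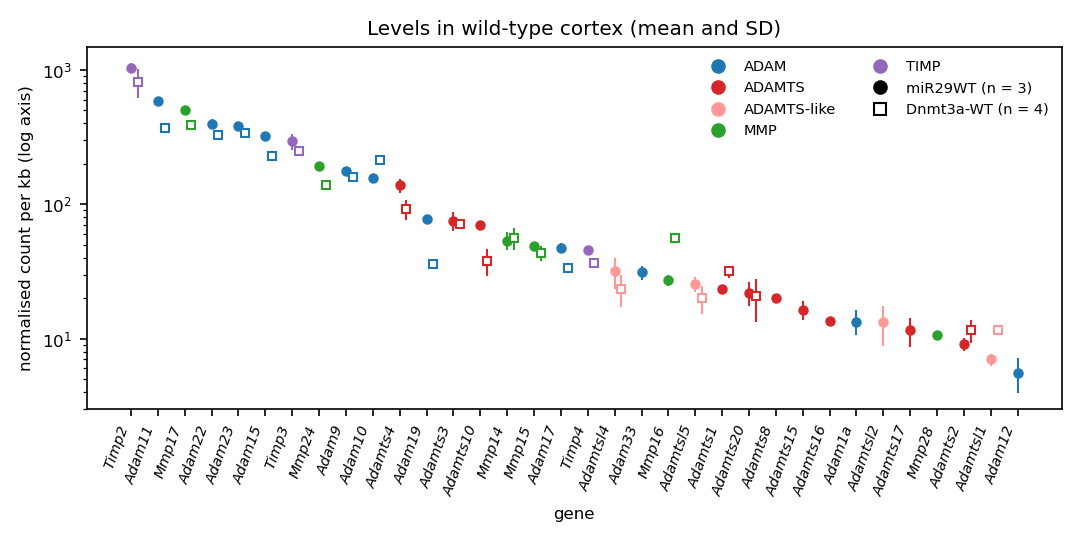
Levels of the tested members in wild-type cortex, as normalised counts per kb of the longest annotated transcript (mean and SD, log axis). Circles are miR29WT (n = 3, day 40) and open squares Dnmt3a-WT (n = 4, 4.5 months). Timp2 is highest in both, at 1033 and 814 counts per kb. The 2 tables were normalised separately, so a circle and a square of 1 gene are not to be compared.

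Many members were not expressed to a testable level. Of the 84 members 19 stood at 0 in every library of the first model and 19 in every library of the second, 17 of them the same genes. A gene entered the test if its average exceeded the lowest value by 1 or more on the deposited log2 scale, that is 48 normalised counts in the miR29 table and 80.1 in the Dnmt3a table. This left 34 members in the first table and 25 in the second, all of which were also among the 34. The other 50 members of the first table included Timp1, the secreted gelatinases Mmp2 and Mmp9, and Adamts5, a major aggrecanase of cartilage.

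Without miR-29, the membrane-anchored MMPs that passed were all higher and the ADAMs that passed were all lower. Of the 34 members tested between miR29Nestin and miR29WT, 12 passed (limma, Benjamini-Hochberg adjusted p under 0.05 over all genes), 35.3%, where 19.1% of all 12014 tested genes passed. Adamts17, Adamtsl5, Timp4, Mmp14, Mmp15, Mmp24 and Mmp28 rose, 7 members against 9.02% of all tested genes. Adam19, Adam33, Adam10, Adamts3 and Timp2 fell, 5 members against 10% of all tested genes. The median log2 difference of the tested members was 0.08, beside −0.01 over all tested genes, and the median size without sign was 0.15 beside 0.10. By family, 3 of 11 tested ADAMs fell, and 4 of 6 tested MMPs rose with none lower. Mmp28 and Adam12 entered the test only through the higher level of the mutant group, and without them 11 of 32 members passed, 6 higher and 5 lower, with 3 of 5 MMPs higher. Of the 10 tested ADAMTS genes 1 rose and 1 fell, as did 1 and 1 of the 3 TIMPs, and 1 of 4 ADAMTS-like genes rose. Log2 differences here are on the deposited variance-stabilised scale, which compresses differences at low levels, so folds of normalised counts are given beside them.

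**Figure D2:**
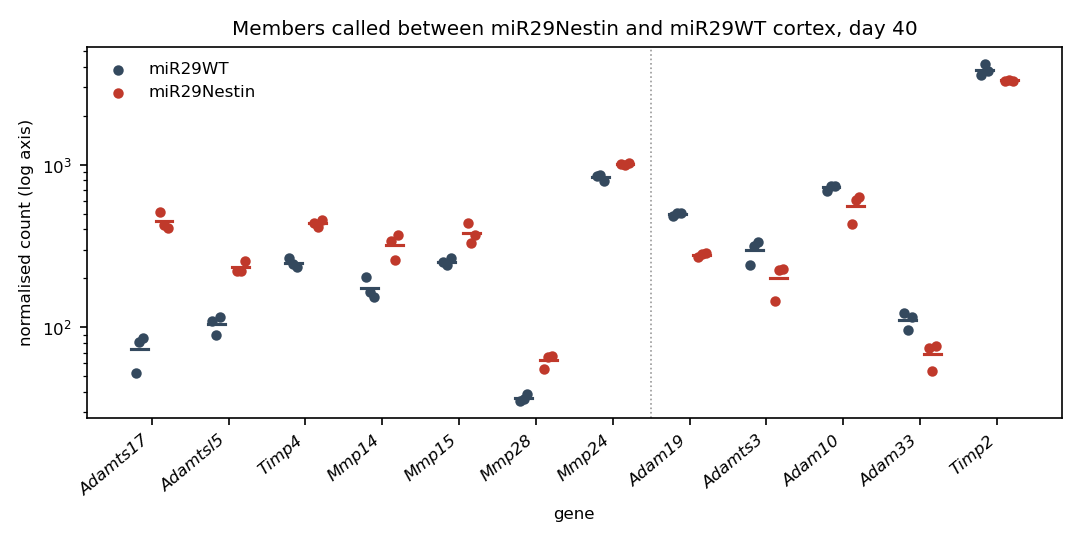
Normalised counts (log axis) of the 12 members that passed the test between miR29Nestin (red, n = 3) and miR29WT (dark, n = 3), 1 point a library, with group means as bars. The 7 genes to the left of the dotted line rose and the 5 to its right fell. In all 12 the groups do not overlap, and the widest gap is that of Adamts17.

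Adamts17 (chr7:66839735-67153171, plus strand) had the largest difference of the tested members. It encodes a secreted protease whose loss causes a connective tissue disorder of short stature and lens defects in people. Its 3 miR29Nestin libraries held 510, 425 and 406 normalised counts and its miR29WT libraries 52.6, 81.6 and 86.4. Every mutant library lay far above every wild-type library. The means were 447 ± 55.3 and 73.5 ± 18.3 (SD, n = 3 each), a 6.08-fold difference, with a log2 difference of 1.48 (SE 0.09, limma adjusted p = 5.49e-06). The 3 sites of its 3′ UTR are printed above. In Dnmt3a-mi5 it held 54.9, 72.8, 64 and 74.5 counts against 80.6, 64.1, 65.5 and 67.2 in Dnmt3a-WT. There the groups overlapped, and the gene lay below the level for testing.

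Adamtsl5 (chr10:80339110-80348412, minus strand) encodes a secreted protein without protease domain that binds fibrillin microfibrils. It held 222, 223 and 255 normalised counts in miR29Nestin against 109, 90.2 and 116 in miR29WT, a 2.22-fold difference (log2 difference 0.62, SE 0.07, limma adjusted p = 2.15e-04). The lowest mutant library was well above the highest wild-type library, although its 3′ UTR holds no miR-29 site. The other 3 tested ADAMTS-like genes, Adamtsl1, Adamtsl2 and Adamtsl4, had differences of 0.09 to 0.11 and did not pass.

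The 4 MMPs that rose were of moderate or low level. Mmp14 (chr14:54431612-54445364, plus strand), the membrane protease that activates MMP2 and cuts collagen, held 338, 258 and 368 normalised counts in miR29Nestin against 204, 165 and 153 in miR29WT. It rose 1.85-fold, by 0.54 on the log2 scale (SE 0.09, limma adjusted p = 0.00286). The groups did not overlap, but the spread within the mutant group was wide. Mmp15 (chr8:95352268-95375080, plus strand), its close relative, held 439, 328 and 367 against 251, 243 and 265 (log2 difference 0.38, SE 0.08, limma adjusted p = 0.0067), 1.49-fold. Here too the mutant libraries scattered more than the wild-type ones.

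Mmp24 (chr2:155775342-155818366, plus strand), a membrane-anchored MMP of neurons that cuts N-cadherin, held 1006, 989 and 1028 normalised counts in miR29Nestin against 853, 861 and 788 in miR29WT. Its difference was small and even across libraries (log2 difference 0.23, SE 0.05, limma adjusted p = 0.014), 1.21-fold. Leaving out miR29WT library 3 ended the call (adjusted p = 0.0689). Mmp28 (chr11:83440768-83463071, minus strand), a secreted MMP, held 55.8, 66.1 and 67 against 35.2, 36.4 and 39.1 counts (log2 difference 0.26, SE 0.06, limma adjusted p = 0.0184), 1.71-fold. Its wild-type mean lay below the level for testing, so it was tested only because the mutant libraries were higher. Leaving out miR29WT library 2 ended its call (adjusted p = 0.0559), and without each of 3 other libraries the gene fell below that level. Mmp17 and Mmp16, the other tested MMPs, had log2 differences of −0.05 and 0.03, with 95% intervals of −0.17 to 0.08 and −0.12 to 0.18.

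The 3 tested TIMPs did not move alike. Timp4 (chr6:115241892-115252205, minus strand), an inhibitor with a restricted pattern that includes brain and heart, held 437, 415 and 459 normalised counts in miR29Nestin against 268, 244 and 236 in miR29WT. It rose 1.75-fold, with a log2 difference of 0.55 (SE 0.06, limma adjusted p = 2.12e-04). Timp2 (chr11:118301069-118355740, minus strand) held 3266, 3324 and 3269 against 3560, 4158 and 3777 counts and fell to 0.858 times its wild-type mean (log2 difference −0.21, SE 0.06, limma adjusted p = 0.0281). The mutant libraries were nearly equal and the wild-type ones scattered. Timp3, which binds the matrix and inhibits ADAM17 as well as MMPs, had means of 1616 ± 112 and 1383 ± 193 counts and missed the threshold (log2 difference 0.21, adjusted p = 0.117). With the replicate number as a block it passed (adjusted p = 0.0228).

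Exons of Timp4, Timp3, Mmp24 and Mmp28 overlap those of a gene on the opposite strand. The library kits keep the strand, but whether the counting used it is not stated in the sources used here, so reads in the shared stretch could belong to either gene. Timp4 shares 90 exonic bases with Syn2, whose difference was 0.07 (adjusted p = 0.276), and Timp3 shares 1733 with Syn3, which fell (−0.29, adjusted p = 0.00449). Mmp24 shares 637 with BC029722, whose difference was −0.02, and Mmp28 466 with 1700020L24Rik, at means of 8.75 and 10.4 counts. Adam17 shares 311 such bases with Iah1 (0.13, adjusted p = 0.215), Adamts8 489 with Gm29724, Adamts9 1381 with A730049H05Rik and 424 with Gm15737, and Adam1a 1805 bases on the same strand with Mapkapk5 (−0.12, adjusted p = 0.185).

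Adam19 was the tested member with the largest fall. ADAM19 (chr11:46055992-46147343, plus strand), also called meltrin β, sheds neuregulin, a growth factor of synapses and myelination. Its miR29Nestin libraries held 270, 282 and 287 normalised counts and its miR29WT libraries 486, 506 and 505. Both groups were tight and far apart. The means were 280 ± 8.54 and 499 ± 11.4 (SD, n = 3 each), 43.9% lower in the mutant (log2 difference −0.58, SE 0.06, limma adjusted p = 7.94e-05). It is the 1 member that fell while carrying miR-29 sites, 2 of the shorter kind. Its exons overlap 587 and 480 bases of the antisense genes Gm16033 and Gm16034, which were not analysed here.

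The other falls were smaller on the log2 scale and rested on more scattered libraries. Adam10 (chr9:70678997-70780229, plus strand) held 431, 605 and 628 normalised counts in miR29Nestin against 692, 742 and 739 in miR29WT (log2 difference −0.32, SE 0.10, limma adjusted p = 0.0422), 23.5% lower. Library 1 of the mutant group was far below the other mutant libraries. Adam33 (chr2:131050591-131063814, minus strand), an ADAM best known as a susceptibility gene for asthma, held 74.6, 54.2 and 76.8 against 123, 96 and 115 counts (log2 difference −0.30, SE 0.08, limma adjusted p = 0.0193). Its mutant mean was 38.4% lower, near the 43.9% of Adam19. Adamts3 (chr5:89677087-89883334, minus strand), which trims procollagen, activates VEGF-C with CCBE1 and inactivates reelin, held 146, 224 and 229 against 241, 318 and 333 counts (log2 difference −0.36, SE 0.11, limma adjusted p = 0.0393), 33% lower. In both groups of Adamts3 library 1 was the lowest, and the groups did not overlap.

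These calls depended on single libraries. When each of the 6 libraries was left out in turn, Adam10 passed in 1 of the 6 fits, Timp2 and Adamts3 in 2 each and Adam33 in 3. Adam10 was lost without any 1 of miR29Nestin libraries 1 and 2 and miR29WT libraries 1, 2 and 3 (adjusted p of 0.0567 to 0.13), Adamts3 without miR29Nestin library 1 or 2 or miR29WT library 2 or 3 (0.0592 to 0.136), and Timp2 without the same 4 libraries (0.0511 to 0.112). Adam33 was lost without miR29Nestin library 2 or miR29WT library 1 or 3 (0.0602 to 0.0793). Adam10 and Timp2 were also lost when the fit had no mean-variance trend (adjusted p of 0.051 and 0.0505). The number of members that fell was 1 to 6 over these fits, with 1 without miR29Nestin library 2 or miR29WT library 3, and the number that rose 6 to 9. Adamts17, Adam19, Adamtsl5, Timp4, Mmp14 and Mmp15 passed in every 1 of the 6.

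Members just short of the threshold were Adam12, Adamts15 and Adamts8. Adam12, a sheddase with 2 miR-29 sites, held 66.2, 84.3 and 58.9 normalised counts in miR29Nestin against 28.5, 50.5 and 49 in miR29WT (log2 difference 0.25, limma adjusted p = 0.0621). It passed with the replicate number as a block (adjusted p = 0.0315). Like Mmp28 it was tested only because the mutant libraries were higher. Adamts15, a proteoglycan-cutting enzyme with 1 site, held 126, 137 and 123 against 115, 84.5 and 91.9 (0.20, adjusted p = 0.0801; 0.0368 without miR29WT library 1), and Adamts8, another of these enzymes, 54.7, 45.9 and 57.5 against 73.6, 75.2 and 69.1 (−0.17, adjusted p = 0.0855). The groups did not overlap in any of the 3 genes. Over all tested members the groups did not overlap in 19 of 34, 12 higher and 7 lower, where this held for 37.3% of all tested genes, 18.6% higher and 18.7% lower.

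The remaining tested members that are well known in the cortex had small differences. Adam17 had means of 253 ± 36 and 213 ± 16.5 counts (log2 difference 0.15, 95% interval −0.02 to 0.32). The LGI receptors Adam11 (−0.14), Adam22 (−0.12) and Adam23 (−0.15) did not pass, with adjusted p of 0.222, 0.399 and 0.129, and without miR29Nestin library 1 Adam11 did (adjusted p = 0.0147), as Adam23 did without miR29Nestin library 3 (0.032). None of their 4 tested ligand genes Lgi1, Lgi2, Lgi3 and Lgi4 passed, and the median of these was −0.07. Adamts4, the aggrecanase of oligodendrocytes, held 543 to 657 counts in miR29Nestin and 540 to 688 in miR29WT (−0.04).

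Members below the level for testing are given as values only. Adamts9, a protease that cuts the proteoglycan versican, held 62.5, 68.2 and 66.2 normalised counts in miR29Nestin against 31.8, 29.8 and 29.9 in miR29WT, 2.15-fold. Both groups were narrow and apart. Mmp2 held 58.7, 34.1 and 36.2 against 31.8, 33.7 and 26.6, and Mmp9 39.1, 20 and 42.6 against 15.4, 19.4 and 19.1. For these gelatinases the mutant libraries reached down almost to the wild-type ones. Adamts13, the protease of von Willebrand factor, held 5.58, 9.02 and 8.15 against 17.5, 13 and 15.8, and Adam21 13, 10 and 14.5 against 19.8, 18.1 and 19.1. In both the mutant libraries were the lower ones. With Mmp25, also lower, and Adamts14 and Adamts19, higher, these make the 8 untested members whose groups did not overlap. How many of all untested genes have such groups was not computed, so this count has nothing to be set against. Of the 50 members not tested, 31 had a value above 0 in some library and 33 stayed under 10 counts.

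Of the 11 tested members with a site, Adamts17 and Mmp24 rose and Adam19 fell, so 2 were higher and 1 was lower. Among all tested genes with a site 17.3% were higher and 8.58% lower, shares near those of the members. Of the 23 tested members with no site 5 rose and 4 fell, beside 7.38% and 10.5% of all tested genes with no site. The number of sites did not order the members: Adamts2, a procollagen protease with 4 sites, had a log2 difference of 0.07 (95% interval −0.12 to 0.27), Adam17 with 2 sites 0.15, Adamts20 with 2 sites 0.08, and Adamts17 with 3 sites 1.48. Adam1a, Adamts16 and Adamts10, with 1 site each, had 0.12, −0.10 and −0.12, and the site of Adamts10, at chr17:33530496-33530502, lies in a short transcript that ends inside the gene. Of the 3 tested members with the longer match, Adamts17 rose, and Adam12 (0.25) and Adamts20 did not pass. Among all tested genes with the longer match 28.4% were higher and 5.92% lower.

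**Figure D3:**
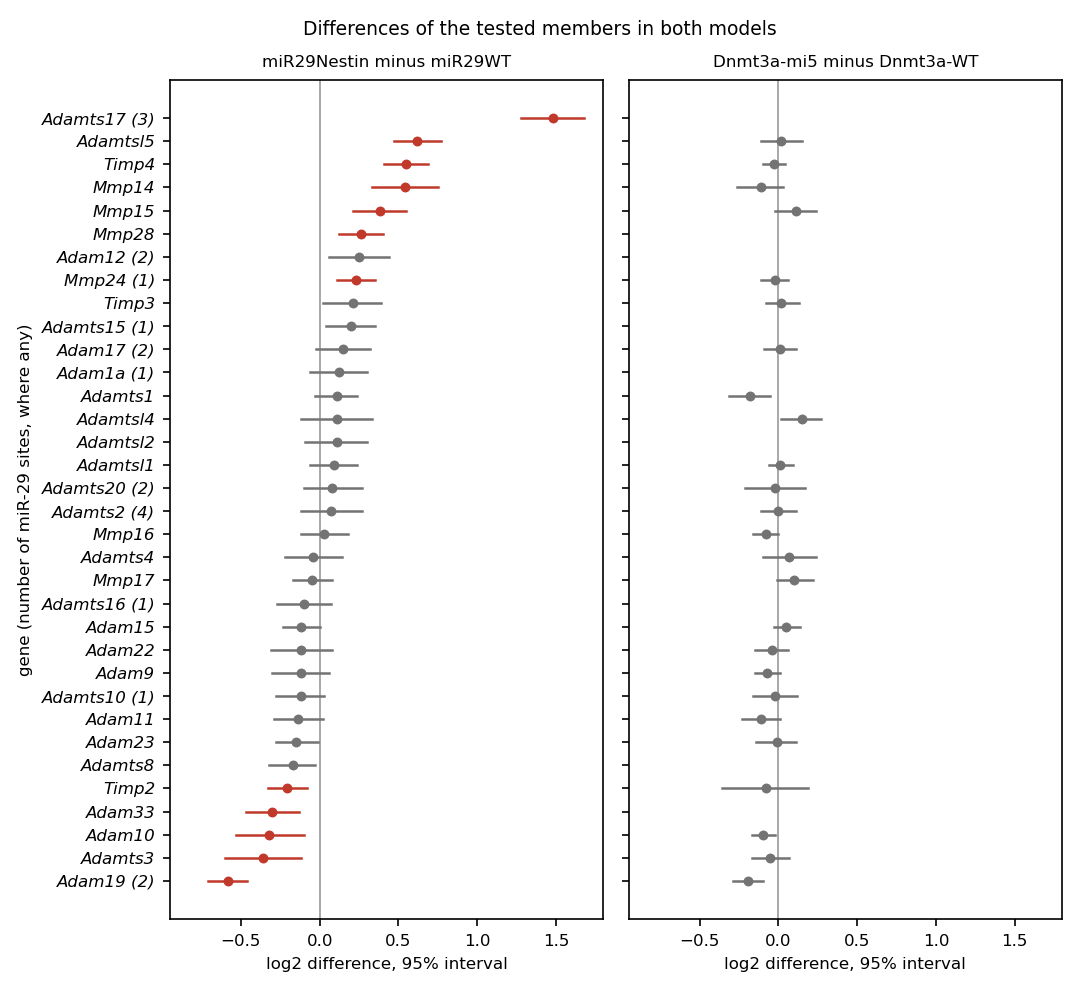
Log2 difference (mutant minus wild-type) with its 95% interval for the 34 members tested in the miR-29 deletion (left) and the 25 of them also tested in Dnmt3a-mi5 (right). Red marks an adjusted p under 0.05, and the number after a name counts its miR-29 sites. Adamts17 stands at 1.48 and Adam19 at −0.58 on the left. No member is red on the right.

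With Dnmt3a alone released from miR-29, no member passed. Of the 25 tested members 0 were called (limma, adjusted p under 0.05), where 0.122% of all 10670 tested genes, 13 genes, were called, 0.0281% of the tested genes higher and 0.0937% lower. At an unadjusted p under 0.05 there were 5 members, beside 14.7% of all tested genes. The median log2 difference was −0.02, beside 0.00 over all tested genes. Of the 12 members that passed in the miR-29 deletion, 9 were tested here, and their differences ranged from −0.19 (Adam19) to 0.11 (Mmp15).

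Adam19 had the smallest p of the members in this model. Its Dnmt3a-WT libraries held 241, 238, 216 and 223 normalised counts and its Dnmt3a-mi5 libraries 177, 146, 165 and 192. All 4 mutant libraries lay below all 4 wild-type libraries. The means were 170 ± 19.3 and 230 ± 11.9 (SD, n = 4 each), 25.9% lower, with a log2 difference of −0.19 (SE 0.04, 95% interval −0.29 to −0.10, limma adjusted p = 0.126). An effect with 2 levels had been removed from this table before deposit, between libraries 1 and 2 of each group and libraries 3 and 4. Without a term for it the adjusted p was 0.0495 and 1 member passed, beside 0.797% of all tested genes. That the mutant libraries were the lower ones within each of these sets follows from the groups not overlapping.

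Adam10 held 986, 1024, 978 and 962 normalised counts in Dnmt3a-WT and 865, 903, 922 and 912 in Dnmt3a-mi5. The groups did not overlap, and the difference was small, −0.10 (95% interval −0.17 to −0.02, limma adjusted p = 0.237). Adamtsl4, a fibrillin-binding protein of the eye's lens fibres, held 115, 68.8, 116 and 77.2 in Dnmt3a-WT and 125, 130, 116 and 127 in Dnmt3a-mi5 (0.15, adjusted p = 0.276). The lowest mutant library and the highest wild-type library were nearly equal. These 3 genes were the tested members whose groups did not overlap, 3 of 25, where 12% of all tested genes had such groups, 5.33% with the mutant higher and 6.67% with the mutant lower.

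Adamts1 and Mmp16 were the other members with an unadjusted p under 0.05. Adamts1, a proteoglycan-cutting enzyme induced by injury, held 154, 161, 171 and 134 normalised counts in Dnmt3a-WT and 115, 103, 83.5 and 149 in Dnmt3a-mi5 (−0.18, limma adjusted p = 0.226). Mmp16 had means of 279 ± 12.7 and 249 ± 15.7 counts (−0.08, adjusted p = 0.332). In both genes the groups overlapped.

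Of the genes that rose without miR-29, none that was tested here passed. Mmp15 went in the same direction as there, with means of 262 ± 38.9 in Dnmt3a-mi5 and 222 ± 27.4 in Dnmt3a-WT (0.11, 95% interval −0.02 to 0.24). Timp4 held 192, 213, 200 and 204 normalised counts in Dnmt3a-WT and 192, 195, 191 and 196 in Dnmt3a-mi5 (−0.03, 95% interval −0.10 to 0.04). Adamtsl5 had a difference of 0.02 (interval −0.11 to 0.15), Mmp24 of −0.02 (−0.11 to 0.06) and Mmp14 of −0.11 (−0.26 to 0.03). The intervals of Timp4, Adamtsl5, Mmp24 and Mmp14 lie below their differences of 0.55, 0.62, 0.23 and 0.54 in the miR-29 deletion. The log2 scales are unlike, with zero levels of 7.63 here and 6.59 there, so the same fold can give different values. As folds of normalised counts these genes stood at 0.956, 1.05, 0.977 and 0.826 here, and at 1.75, 2.22, 1.21 and 1.85 there. The difference between the models was not tested, and age, kits and normalisation differ between them. Timp2 held 2217, 4017, 2925 and 2925 in Dnmt3a-WT and 2661 to 2922 in Dnmt3a-mi5 (−0.08), and without Dnmt3a-WT library 2 its difference was 0.07. Adam33, below the level for testing, held 81.8, 36.1, 61.5 and 52.7 in Dnmt3a-WT and 30 to 32 in Dnmt3a-mi5. All 4 mutant libraries lay below the wild-type ones, as the mutant libraries had in the miR-29 deletion. Adam33 is 1 of 5 untested members of this model whose groups did not overlap, all with the mutant lower. Among them, Adamts15 (43.2 to 59.5 against 64.9 to 85 counts) and Mmp2 (15 to 26.9 against 27.1 to 28.7) had been higher in the miR-29 deletion. Adam32 and Adamts18 had overlapping groups there. The share of all untested genes with such groups was not computed.

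**Figure D4:**
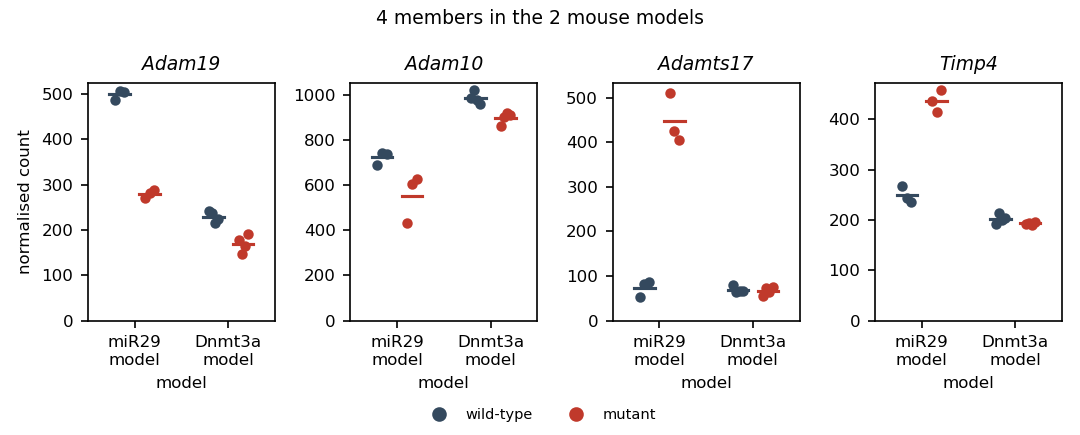
Normalised counts of Adam19, Adam10, Adamts17 and Timp4 in both models, 1 point a library, wild-type dark and mutant red, with group means as bars (n = 3 a group in the miR29 model, n = 4 in the Dnmt3a model; axes start at 0). For Adam19 and Adam10 the mutant libraries are the lower ones in both models, and for Adamts17 and Timp4 the groups are apart only in the miR29 model. The 2 tables were normalised separately, so levels are not to be compared between models.

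Of 22 tested genes that switch these proteases on or restrain them, 5 rose and 1 fell without miR-29, with a median of 0.02. Over all tested genes 9.02% rose and 10% fell. This list and the lists of shed and matrix substrates below were chosen with earlier results of these data known. Their counts therefore only describe the listed genes, and a share above that of all genes is no independent evidence about the set. Tspan14, a tetraspanin that escorts ADAM10 out of the endoplasmic reticulum, went from 690 ± 37.8 to 1021 ± 88.6 normalised counts (log2 difference 0.47, limma adjusted p = 8.29e-04). The other tested tetraspanins of this group, Tspan5, Tspan15, Tspan17 and Tspan33, did not pass (0.01 to 0.20). Rhbdf1, which carries ADAM17 through the secretory pathway, rose by 0.30, and Pcsk5, a proprotein convertase, by 0.38. The serine protease inhibitors Serpini1 (0.32) and Serpine2 (0.27) rose as well. Ccbe1, the cofactor of ADAMTS3, fell by 0.35, from 93.7 ± 19.3 to 50 ± 3.37 counts (adjusted p = 0.00968). Furin, Reck and Bsg had differences of −0.11, −0.16 and 0.02 and did not pass.

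Of 26 tested genes whose proteins are shed by ADAMs or MMPs, 11 fell and 1 rose, with a median of −0.08 beside −0.01 over all tested genes, of which 10% fell and 9.02% rose. As the list was chosen with earlier results known, this count is a description only. Epha4, an ephrin receptor, had the largest fall, from 2014 ± 189 to 1173 ± 123 normalised counts (log2 difference −0.70, limma adjusted p = 2.24e-04). The adhesion molecules L1cam (−0.34) and Ncam1 (−0.25), the prion protein gene Prnp (−0.25) and the growth factor Tgfa (−0.35) also fell. Mertk, a receptor for the uptake of dying cells, rose by 0.49. App, the source of the amyloid peptide, and Notch1 did not pass (−0.06 and 0.04).

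Of 20 tested matrix substrates, also listed with earlier results known, 9 rose and 1 fell, with a median of 0.22, beside 9.02% and 10% of all tested genes. Those with the smallest p among the rises were Col4a1 (0.38), Col4a2 (0.47) and Lamc1 (0.39) of basement membranes and Bcan (0.45) and Hapln1 (0.39) of the perineuronal matrix. Reln, which ADAMTS3 cuts, fell from 780 ± 53.6 to 409 ± 50.3 normalised counts (log2 difference −0.72, limma adjusted p = 1.20e-04). Across these lists 28 genes passed without miR-29, 18 of them when miR29WT library 2 was left out. In Dnmt3a-mi5, 0 genes of the lists passed (limma). There 1 of 21 regulators, 5 of 26 shed substrates and 5 of 18 matrix substrates had an unadjusted p under 0.05, beside 14.7% of all tested genes.

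Markers of other cell types moved with these results without miR-29. Of 5 tested markers of leptomeningeal fibroblasts 3 rose, Igf2 (0.84) and the collagen genes Col1a1 (0.33) and Col1a2 (0.32), which are also matrix substrates here, and the summed level of the 6 markers was 1353 to 1765 normalised counts in miR29Nestin against 624 to 1092 in miR29WT. Dcn and Slc22a6, 2 other markers of these cells, had differences of −0.07 and 0.04. Of 4 markers of oligodendrocyte precursors 2 rose, with sums of 3052 to 3332 against 2434 to 2797, and of 5 astrocyte markers 2 rose and 1 fell, with sums of 13235 to 13605 against 12314 to 13049. Of 5 neuronal markers 1 rose and 2 fell, with sums of 84730 to 87114 against 87768 to 94522. In mural cells 1 marker rose and 1 fell (2487 to 3033 against 3017 to 3285), and of the endothelial and microglial markers none passed. Of 5 oligodendrocyte markers Mbp rose (0.21, limma adjusted p = 0.0113), with sums of 98370 to 109652 against 90757 to 101517. Each of the 5 neutrophil markers stayed under 3 counts in every library of this model.

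In Dnmt3a-mi5, 1 of 5 microglial markers fell, Cx3cr1 (−0.24, limma adjusted p = 0.031), with sums of 2345 to 2678 normalised counts against 2717 to 2860. The 6 striatal markers had differences of 0.32 to 0.47, none of which passed, with sums of 4745 to 10225 against 4176 to 7170. Of these markers 3 had an unadjusted p under 0.05 (limma), beside 14.7% of all tested genes. The part of any of these cell types in the differences of the metalloprotease genes was not tested. In such bulk samples fewer cells of a type and less RNA per cell cannot be told apart. By Y-linked transcripts 1 of 3 miR29Nestin and 2 of 3 miR29WT mice were male, and no call among the named members changed when sex was a covariate.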

How the data were processed

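Per the labels' protocols, polyadenylated RNA was sequenced paired-end for 50 cycles after TruSeq stranded (miR29 mice) or KAPA stranded (Dnmt3a mice) library preparation. Tools named in the submitters' processing notes, without roles, are DESeq2, Salmon, STAR and cutadapt, with the builds mm9 and hg19. The authors deposited 1 table a model of log2 values from the variance-stabilising transformation of DESeq2. Columns of the miR29 table headed KO were taken as miR29Nestin by their replicate titles. The Dnmt3a columns repeat their replicate names, so its libraries are numbered by column order.

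The transformation was inverted in closed form to normalised counts. Of the low values of the miR29 mice 88 to 90.6% fell within 0.05 of a whole read, whereas counts of the Dnmt3a table are approximate, and 2546 genes there had values below its zero level. In that table the means of libraries 1 and 2 of both groups equalled those of libraries 3 and 4 for every gene within 5.5e-09, so a 2-level effect had been removed before deposit. A term for it is in the fit.

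Each table was fitted with limma 3.58.1 (R 4.3.3; mean-variance trend, Benjamini-Hochberg over all tested genes, called at an adjusted p under 0.05). P-values measure the spread between the mice of these groups. Alternatives were other filters, priors, scales and centring, sex, the replicate block, the removed-effect term and leaving out each library. In the miR29 table, deviations from the group means of same-numbered libraries correlated at 0.34, 0.20 and 0.19. Of the pairs with different numbers, 1 (miR29Nestin 3 and miR29WT 2) stood at 0.18 and the others at −0.33 to −0.06. Every same-numbered value was over 0.1, but the labels state no pairing, so whether the numbers pair the mice is not known. The fit reported therefore has no block, and the block is an alternative. GENCODE M21 (GRCm38) gave sites and coordinates. It held 23796 of the symbols as written and 277 under a synonym, and lacked 371. Members and lists were chosen with earlier results of these data known. Genes named are the members that passed, tested members with a site, the TIMPs and a set of well-known members, the 3 highest per kb, the 3 closest to the threshold and in each list up to 6 genes that passed. Genes of the lists that did not pass, untested members with a value and the members with an unadjusted p under 0.05 in Dnmt3a-mi5 were named after their values were seen.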

Additional observations from a re-analysis of the deposited data

Results flagged for a closer look

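Among the named members, 56 groups of 4 Dnmt3a libraries were checked for a library far from the other 3, and 3 groups held one, where chance gives about 1 in 20. Adam17 stood at 142 normalised counts in Dnmt3a-WT library 2 and at 153 to 154 in the other 3 libraries of that group. Adamts8, below the level for testing in that table, had its lowest Dnmt3a-WT library at 54.7 counts and the others at 62 to 62.4. Adamts20 had its highest Dnmt3a-mi5 library at 148 counts and the others at 127 to 130. No count of members that passed rests on these libraries, since none passed in that table.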

How the results depend on the processing

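In the miR-29 deletion, 14 of the 34 members passed with the replicate block, beside 12, and 3037 genes in all beside 2289. Besides the calls of Adam12 and Timp3 gained with this replicate block, it changed no other call of a named member. No paired analysis was possible for the Dnmt3a table because its columns carry no usable replicate numbers. With the stricter filter 4 members rose, as fewer members were tested, and without the mean-variance trend 3 fell. Leaving out single libraries gave 7 to 12 members in all, 6 to 9 higher and 1 to 6 lower, 1399 to 2314 genes in all and 18 to 29 genes of the lists of regulators and substrates. Counting the longer match alone, 1 member with a site rose. For Dnmt3a-mi5, omitting the term for the removed effect gave 1 member, lower, and 85 genes in all, and leaving out single libraries gave 0 members and 1 to 81 genes in all. The cause of these shifts was not tested.

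Differences near 0 changed sign without losing or gaining a call. In the miR-29 deletion, over the fits that leave out 1 library, Adamts4 ranged from −0.10 to 0.04, Adamts2 from −0.03 to 0.14 and Mmp17 from −0.09 to 0.01, and with sex as a covariate Adamts4 stood at 0.00. In Dnmt3a-mi5 the ranges were −0.02 to 0.06 for Adam17, −0.07 to 0.03 for Adam23, −0.06 to 0.03 for Adamts2, −0.09 to 0.01 for Adamts3, −0.09 to 0.04 for Adamts10, −0.12 to 0.06 for Adamts20, −0.04 to 0.06 for Adamtsl5, −0.05 to 0.00 for Mmp24, −0.23 to 0.07 for Timp2 and −0.01 to 0.05 for Timp3. The 50 and 59 members below the level for testing have no test here.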
